A study of Mus musculus with 96 samples.

Results

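The loci of 7 regulators of naive pluripotency, Klf4, Klf2, Klf5, Tfcp2l1, Prdm14, Tbx3 and Nr5a2, were followed through the binding of 5 transcription factors during conversion of mouse embryonic stem (ES) cells towards primitive endoderm (PrE). A region belonged to a locus when the summit of its GATA6 signal lay in a window of mm10 holding the gene body and about 100 kb on either side. These windows held 102 of the 42403 GATA6 binding regions of the deposited table, or 0.241%: 23 at Tbx3, 21 at Klf5, 19 at Klf4, 12 at Tfcp2l1 and 9 each at Klf2, Prdm14 and Nr5a2. Choosing them from the table used position only. The table itself holds regions called as GATA6 peaks, so a rise of GATA6 after Dox is in part built into it.

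The study asked how GATA6 engages the genome while ES cells are driven out of pluripotency. KH2 ES cells (C57BL/6 x 129/Sv) carrying a doxycycline (Dox)-inducible gata6 cassette were profiled by ChIP-seq, which sequences the DNA bound to an immunoprecipitated protein. GATA6, SOX17, OCT4, SOX2, ESRRB and input chromatin were profiled before Dox and after 8 h, 16 h, 1, 2 and 4 days of 1 µg/mL Dox, and in XEN cells, a stem cell line of extraembryonic endoderm, for all of these except ESRRB. GATA6 and SOX17 were also profiled at day 2 of Dox in cells nucleofected, as Dox began, with either control siRNA or siRNA against Oct4. All ES cell groups carry the cassette, including those before Dox, and grew with LIF and serum on fibroblast feeders that were adsorbed before fixation, while XEN cells grew without LIF. The inducible cells descend from picked antibiotic-resistant clones. The XEN line (X10) is of another strain, CD1, so that strain, line and state cannot be told apart between day 4 and XEN.

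The labels list 96 libraries, and the table gives 1 value per condition in RPM (reads per 1e6 reads), pooled over its libraries. Whole reads per library could be recovered for 40 of the 45 conditions with a column, so that the spread between libraries is given for these. The 76 recovered libraries held 5.42 to 69.4 M (1e6) reads, those with an antibody a median of 15.3 M, so that values near 0.5 RPM rest on few reads. GATA6 before Dox and OCT4 in XEN rest on 1 library each, and the columns before Dox of SOX17, OCT4, SOX2, ESRRB and input could not be split into libraries. XEN input and the day 4 columns of SOX2 and GATA6 have 3 libraries in the labels and gave 2 recovered depths, and ESRRB at 8 h and SOX17 at 16 h have 2 and gave 1, so that which labelled libraries entered these values is not known. By the study's methods, the libraries of most conditions are independent chromatin preparations, so p-values measure the spread between preparations. Whether these came from separate cultures is not stated.

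The naive state of ES cells is held by a network in which OCT4, SOX2 and ESRRB (here pluripotency transcription factors, PTFs) occupy enhancers of further factors that in turn sustain self-renewal. Klf4, Klf2 and Klf5 encode related zinc-finger proteins that act in part redundantly, Tfcp2l1 a grainyhead-like factor downstream of LIF, Prdm14 a PR-domain protein that represses lineage genes, Tbx3 a T-box factor that can also act in extraembryonic endoderm, and Nr5a2 an orphan nuclear receptor able to bind the Oct4 gene. GATA6 opposes this network and drives PrE identity, with SOX17 acting beside it in the same lineage.

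For each locus, the region with the most GATA6 signal at 8 h is shown by its best GATA6 motif in the deposited motif scan, with 21 bases of flank on each side, read from the GRCm38 (mm10) reference 5′ to 3′ on the strand of the motif. Regions are named by the distance of their summit from the transcription start, positive in the direction of transcription. The capitals mark the motif, and each of the 7 holds the letters AGATAAG, the GATA core, which a best match favours. Along the chromosome, the first base of the motif stood nearest the summit at Nr5a2 (-6 bases) and farthest at Tfcp2l1 (1363 bases). Which sequence was bound was not tested.
Klf4 +68.0 kb, GATA6 motif, chr4:55464115-55464169, minus strand: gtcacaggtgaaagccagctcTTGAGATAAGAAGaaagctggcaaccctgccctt
Klf2 -47.7 kb, GATA6 motif, chr8:72271618-72271672, minus strand: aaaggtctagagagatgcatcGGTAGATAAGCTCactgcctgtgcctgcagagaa
Klf5 +33.0 kb, GATA6 motif, chr14:99331561-99331615, minus strand: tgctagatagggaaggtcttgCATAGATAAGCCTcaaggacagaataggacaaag
Tfcp2l1 +20.3 kb, GATA6 motif, chr1:118649614-118649668, minus strand: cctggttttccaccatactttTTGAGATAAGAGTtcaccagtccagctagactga
Prdm14 +52.5 kb, GATA6 motif, chr1:13074370-13074424, plus strand: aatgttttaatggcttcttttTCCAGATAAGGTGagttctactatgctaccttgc
Tbx3 -81.6 kb, GATA6 motif, chr5:119588423-119588477, minus strand: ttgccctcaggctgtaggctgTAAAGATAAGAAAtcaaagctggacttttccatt
Nr5a2 -30.0 kb, GATA6 motif, chr1:136990461-136990515, plus strand: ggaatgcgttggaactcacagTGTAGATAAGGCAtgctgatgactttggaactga

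The best OCT:SOX composite motif is shown at the region with the most OCT4 before Dox in each locus, which at 6 of the 7 loci was also the region with the most GATA6 at 8 h, so that both motifs can be read from 1 region. Capitals again mark the motif. Along the chromosome, its first base stood nearest the summit at Tfcp2l1 (-90 bases) and farthest at Tbx3 (-2852 bases). The GATA6 and OCT:SOX motifs of a region are thus not always neighbours. At Klf2 that region, -2.8 kb from the start, has no OCT:SOX motif in the table.
Klf4 +68.0 kb, OCT:SOX motif, chr4:55463928-55463984, minus strand: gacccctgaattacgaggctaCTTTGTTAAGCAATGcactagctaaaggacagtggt
Klf5 +33.0 kb, OCT:SOX motif, chr14:99330609-99330665, plus strand: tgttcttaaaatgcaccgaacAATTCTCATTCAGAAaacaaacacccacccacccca
Tfcp2l1 +20.3 kb, OCT:SOX motif, chr1:118648159-118648215, minus strand: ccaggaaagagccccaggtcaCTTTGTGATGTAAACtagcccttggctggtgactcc
Prdm14 +52.5 kb, OCT:SOX motif, chr1:13074991-13075047, minus strand: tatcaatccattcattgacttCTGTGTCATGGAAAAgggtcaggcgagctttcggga
Tbx3 -81.6 kb, OCT:SOX motif, chr5:119586157-119586213, plus strand: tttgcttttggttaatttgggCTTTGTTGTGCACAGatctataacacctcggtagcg
Nr5a2 -30.0 kb, OCT:SOX motif, chr1:136989834-136989890, minus strand: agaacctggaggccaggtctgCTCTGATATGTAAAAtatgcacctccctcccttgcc

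Over the 102 regions, the table listed a GATA6 motif in 85 (83.3%, against 89.7% of all regions), an OCT:SOX motif in 77 (75.5% against 71.5%), a SOX17 motif in 69 (67.6% against 69.2%) and an ESRRB motif in 52 (51.0% against 36.3%). Within 100 bases of the summit, on either strand, the letters AGATAA stood in 45 of the 102 windows (44.1%, against 54.3% of all windows of that length) and AAGGTCA, the letters of an ESRRB half-site, in 9 (8.82% against 7.06%). TGCAAAT, the octamer, stood in 5 (4.90% against 5.74%) and ACAAT, a SOX word, in 51 (50% against 46.6%). None of these words contains another, and no test was made of any of these shares.

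The 7 windows cover 1700 kb and hold 6 regions per 100 kb, against 1.56 per 100 kb over the genome. The latter divides by all bases, far from genes as well as near them, and the density around other genes was not taken. Tbx3 was densest with 10.5 per 100 kb and Nr5a2 sparsest with 2.81. Of the 102 regions, 74 are intergenic, 19 lie in an intron, 4 in an exon, 2 in exon sequence that is also UTR, and 3 at a transcription start. Some windows hold other genes, to which a region may belong: Eps15l1, Ap1m1, Calr3, Cib3, Fam32a, Gm10282 and Gm11034 at Klf2, Pibf1 at Klf5, Clasp1 at Tfcp2l1 and Ncoa2 at Prdm14. The plot of GATA6 along the loci gives the place and level of each region.

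**Figure D1:**
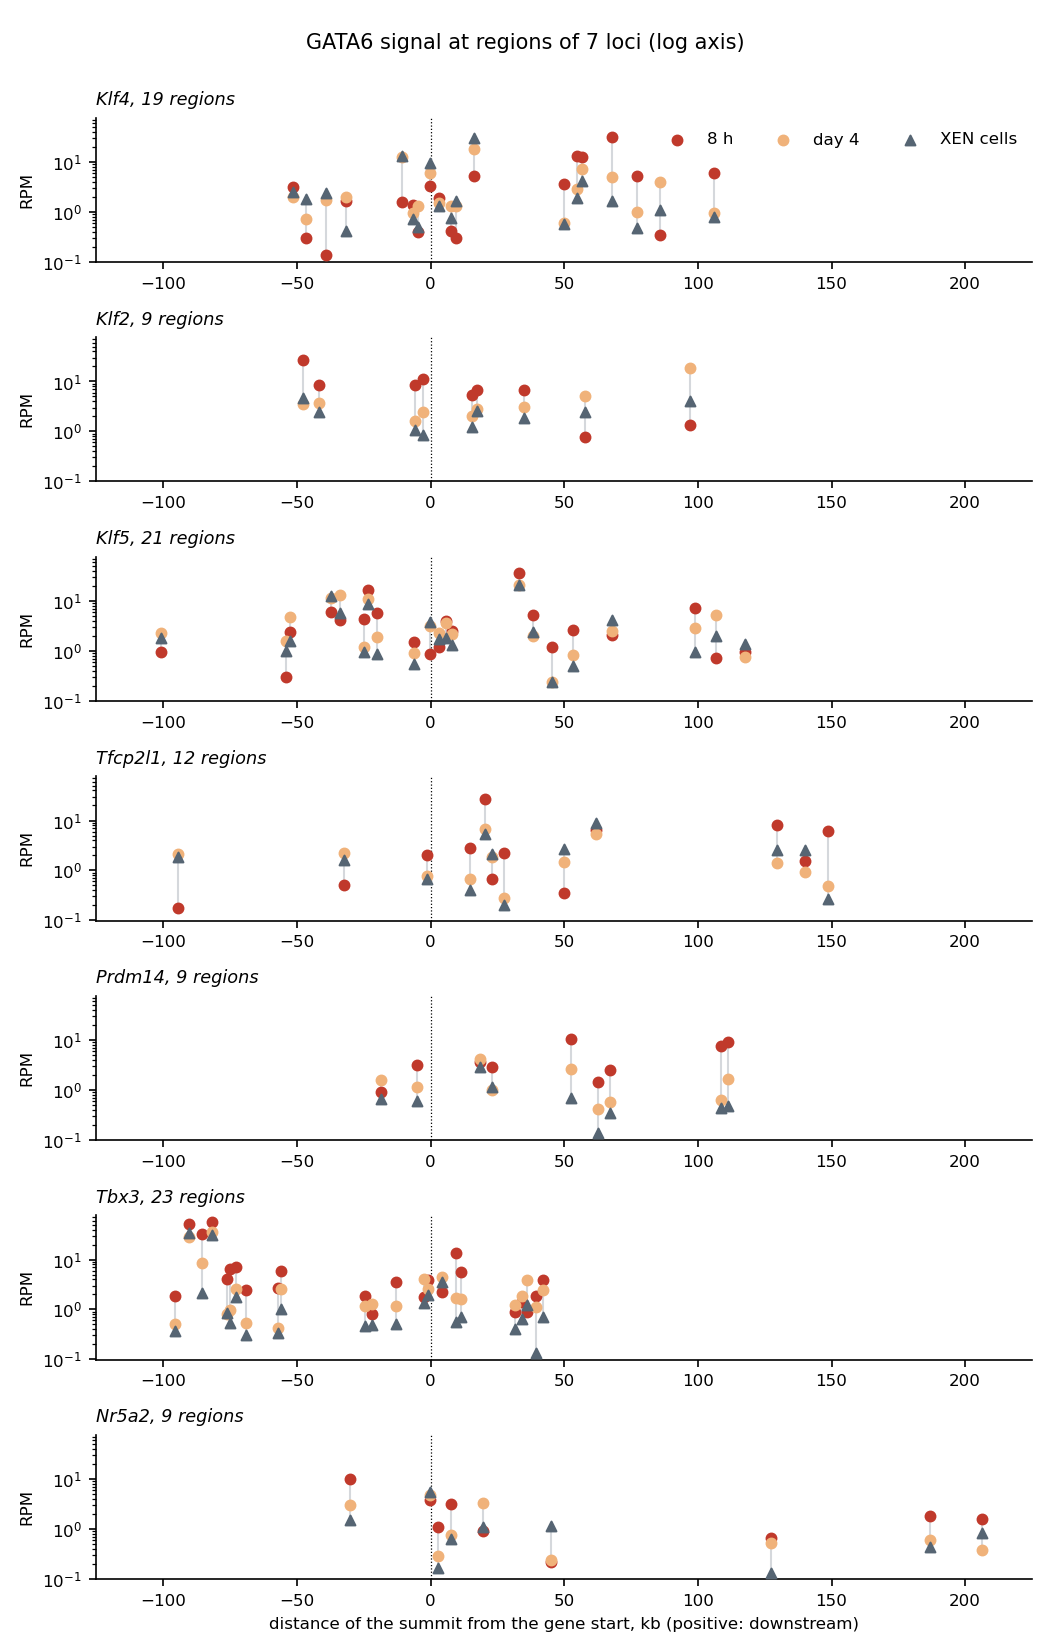
Pooled GATA6 signal (RPM, log axis) of each of the 102 regions against the distance of its summit from the transcription start in kb (positive downstream), 1 panel per locus, with circles for 8 h and day 4, triangles for XEN cells and a grey line joining the 3 values of a region. The highest points are the upstream Tbx3 regions at -81.6 kb (57.5 RPM at 8 h) and -90.5 kb (52.4 RPM).

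The authors' classes of the regions are given as counts beside those of all regions, with no test. By GATA6 time course, 52 of the 102 regions were transient (51.0%, against 38.4% of all regions), 34 early and constant (33.3% against 28.0%) and 16 late (15.7% against 33.6%). Transient regions made up 16 of 23 at Tbx3, 6 of 9 at Prdm14 and 6 of 9 at Nr5a2, but 6 of 19 at Klf4, where 6 were late. PTFs were called before Dox at 38 regions (37.3% against 20.9%) and only after Dox, called ectopic, at 24 (23.5% against 16.6%). None of the 16 late regions had PTFs before Dox and 13 had none at any time, where 1.76% and 88.2% of all late regions did so. Chromatin was classed as closed before Dox in 39 (38.2% against 61.3%), and 22 had the histone state of active enhancers (21.6% against 11.2%).

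Before the results, 1 region has to be set apart. Nr5a2 +19.8 kb, in an exon of Nr5a2 (chr1:136940442-136941033), was high in some libraries and conditions. ESRRB at day 2 measured 60.3 RPM in one library and 2.05 in the other, and SOX2 at day 2 measured 28.7 and 3.36. At day 4 both libraries of SOX2 were high, with 15.3 and 19.7 RPM, and OCT4 measured 6.15 and 11.3 RPM. GATA6 before Dox, with a single library, measured 10.8 RPM there, against 1.08 and 0.698 at 8 h, and input chromatin of XEN cells 4.47 and 4 RPM, against 0.446 to 0.919 for the pooled input columns of ES cells. Of 3665 pairs of libraries compared over the 102 regions, 2 differed by at least 5-fold and 2 RPM, both at this region. Sums for Nr5a2 are therefore given with and without it, while its counts include it.

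**Figure D2:**
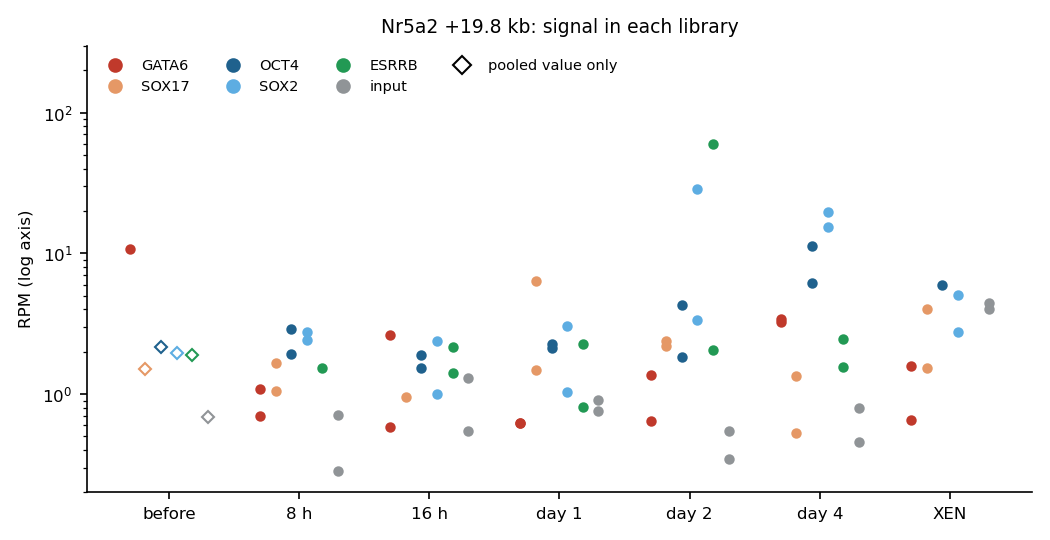
Signal at Nr5a2 +19.8 kb (RPM, log axis) in every recovered library (circles) by condition, coloured by factor, with open diamonds for columns known only as a pooled value. One ESRRB library of day 2 stands at 60.3 RPM and one SOX2 library of day 2 at 28.7 RPM.

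GATA6 was higher at most of the regions by 8 h of Dox, as it was over the whole table of GATA6 peaks. By day 4 it had fallen at more of them than it had risen at. Of the 102 regions, 76 rose by at least 2-fold from before Dox to 8 h and 2 fell (background 60.4% and 1.8% of all regions), with a median log2 difference of 1.99 against 1.38 over all regions. Between 8 h and day 4, 47 regions fell by at least 2-fold and 21 rose, where 34.8% of all regions fell and 30.9% rose, and the median log2 difference was -0.67 against -0.02. From day 4 to XEN, 29 fell and 3 rose, against 11.7% and 14.4% of all regions. These log2 differences compare pooled RPM values after a pseudocount of 0.193 RPM for GATA6, which understates changes of low regions. As the ChIP was made on bulk cells, fewer bound cells and less binding per cell cannot be told apart.

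The replicate test on recovered reads used edgeR's quasi-likelihood test with Benjamini-Hochberg adjustment at 0.05 over all regions tested, with TMM scaling. It called 51 of the 100 regions tested lower between 8 h and day 4 and 27 higher, against 39.3% and 37.2% of all regions, and from day 4 to XEN 32 lower and 4 higher, against 14.3% and 16.1%. The latter comparison, with 36 calls, had 10 without the deeper XEN library and 21 without the shallower library of day 4. From before Dox to 8 h, with 1 library before Dox, edgeR called 13 higher and 3 lower (6.63% and 1.42% of all regions), and with scaling by library size alone 69 and 2 (54.5% and 0.248%). The TMM factor of the library before Dox was 0.313. Without the deeper library of 8 h, 8 regions were called in place of 16.

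GATA6 fell at most of the regions that had PTFs before Dox. Between 8 h and day 4, edgeR called 32 of the 36 tested lower and 2 higher, where 78% of all regions of this class were lower and 6.4% higher. Their median log2 difference was -1.73, less deep than the -2.03 of the class. Of the 24 regions with ectopic PTFs, 12 were higher and 3 lower, against 53.7% and 19% of their class, with medians of 0.66 and 0.91. Of the 40 regions with no PTF, 13 were higher and 16 lower, against 43% and 32%, and their median log2 difference was -0.55 where that of the class was 0.56. Between day 4 and XEN the 3 classes gave 15, 9 and 8 lower calls and 0, 1 and 3 higher calls by edgeR, in the same order, where 20.9%, 27.2% and 8.8% of all regions of the class were lower and 4.66%, 10.3% and 21.4% higher.

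The loci differed in how much GATA6 they kept. Summed over a locus, the pooled GATA6 signal of day 4 was 0.328 of that of 8 h at Prdm14, 0.418 at Tfcp2l1, 0.512 at Tbx3, 0.576 at Klf2, 0.598 at Nr5a2 (0.473 without the region at +19.8 kb), 0.774 at Klf4 and 0.881 at Klf5. Over all 102 regions it was 0.606 (0.601 without that region), and over all 42403 regions 0.885. In the separate libraries, Prdm14 summed to 44.0 and 39.8 RPM at 8 h and to 12.1 and 15.4 at day 4, and Tbx3 to 228 and 202 RPM against 90.1 and 130. The libraries of the 2 times did not overlap at Prdm14, Tfcp2l1, Tbx3, Klf2, Nr5a2 or Klf4. Klf4 was the closest of these, with 94.2 and 89.8 RPM at 8 h against 68.1 and 74.3 at day 4. For comparison, the ratio around 6 other pluripotency genes was 0.254 at Sox2, 0.367 at Esrrb, 0.481 at Dppa3, 0.559 at Pou5f1, 0.717 at Nanog and 0.859 at Zfp42. Around 6 PrE genes it was 0.962 at Sox7, 1.08 at Pdgfra, 1.95 at Dab2, 1.98 at Gata4, 2.05 at Sox17 and 3.64 at Foxa2.

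**Figure D3:**
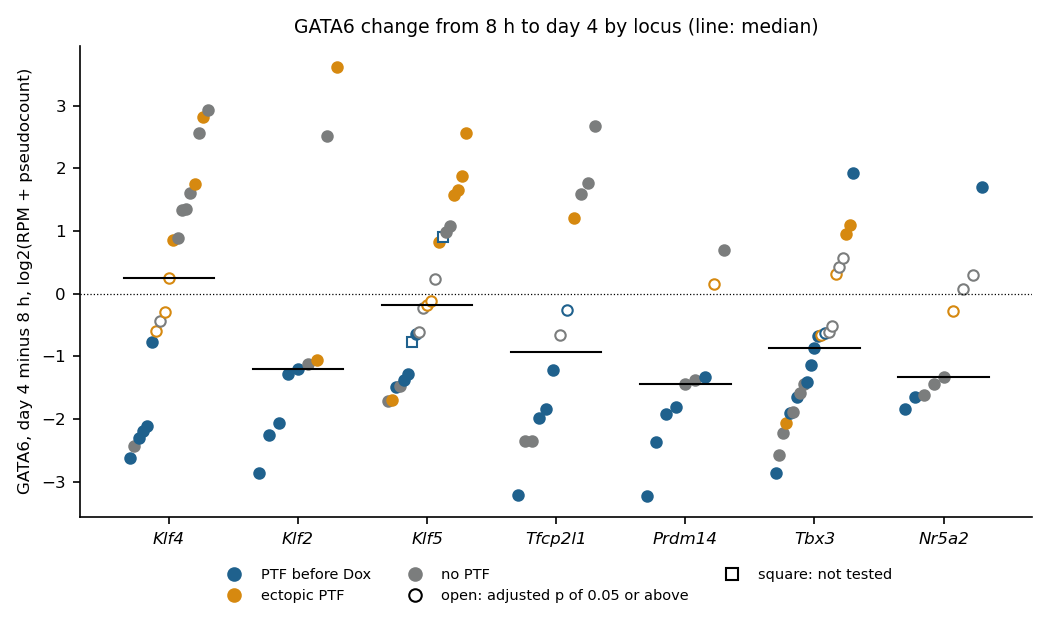
Difference in GATA6 from 8 h to day 4 (log2 of pooled RPM plus pseudocount) for each of the 102 regions by locus, coloured by PTF class, with a line at the median of the locus, open circles for regions edgeR did not call and squares for those not tested. Medians run from -1.43 at Prdm14 to 0.25 at Klf4, and most points with PTFs before Dox lie below 0.

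Klf4, known in ES cells for a cluster of enhancers downstream of the gene, had 7 of 19 regions that rose and 5 that fell by at least 2-fold from 8 h to day 4, near the 30.9% and 34.8% of all regions, with a median log2 difference of 0.25, where Klf5 had -0.17 and the other loci -0.87 or lower. Its strongest region at 8 h, +68.0 kb (chr4:55463713-55465226, intergenic, accessible, active enhancer state), bore 1.14 RPM of GATA6 before Dox, 31.9 and 31.6 RPM in the libraries of 8 h, 12.1 and 10.5 at day 1, 3.49 and 6.54 at day 4, and 1.89 and 1.44 in XEN. Both libraries of 8 h thus stood above both of day 4, and these above XEN. The fall from 8 h to day 4 was -2.65 on the log2 scale (SE 0.27, edgeR adjusted p = 6.46e-11), and that from day 4 to XEN -1.66 (SE 0.32, edgeR adjusted p = 0.000154).

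The PTFs fell at the same Klf4 region. OCT4 there measured 14 RPM before Dox, 19.7 and 15 at 8 h and 3.54 and 2.69 at day 4, and SOX2 18.3 RPM before Dox, 19.7 and 22.3 at 8 h and 2.11 and 3.2 at day 4. ESRRB fell from 8.88 RPM before Dox, through 6.07 and 4.9 at day 1, to 0.936 and 1.37 at day 4. By edgeR the log2 differences from 8 h to day 4 were -2.58 for OCT4 (adjusted p = 3.43e-06) and -2.99 for SOX2 (adjusted p = 3.76e-08). For ESRRB the difference was -2.43, with 1 recovered library at 8 h, so no p is given for single regions of ESRRB. Input at the region was between 1.44 and 2.38 RPM, with 1.44 RPM at day 4, so that ESRRB ended at or under the level of input.

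Next to it, +56.8 kb and +54.9 kb, which were picked after their values were seen, also lost ESRRB. At +56.8 kb (chr4:55474946-55476217) ESRRB measured 24.1 RPM before Dox, 26.5 in the 1 recovered library of 8 h and 0.676 and 1.61 at day 4. GATA6 there measured 14 and 11 RPM at 8 h and 6.76 and 7.81 at day 4 (edgeR log2 -0.74, adjusted p = 0.0202). At +54.9 kb, GATA6 measured 13.2 and 12.7 RPM at 8 h and 2.33 and 3.4 at day 4 (edgeR log2 -2.16, adjusted p = 6.21e-08).

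Other Klf4 regions gained GATA6 instead. At +16.4 kb (chr4:55515487-55516878, intergenic, closed before Dox) it measured 5.65 and 4.97 RPM at 8 h, 9.24 and 9.42 at day 2, 19.2 and 17.4 at day 4 and 32 and 28.9 in XEN, so that the libraries of these 4 times did not overlap (8 h to day 4, edgeR log2 1.84, SE 0.25, adjusted p = 3.61e-08). SOX17 at this region rose from 8 h values of 1.5 and 1.07 RPM to 33.3 and 26.9 at day 4 and stood at 26 and 24.4 in XEN (8 h to day 4, edgeR log2 3.38, adjusted p = 2.75e-15). OCT4 and SOX2 arrived as well, OCT4 with 2.05 RPM before Dox, 7.04 and 7.49 at day 4 and 2 in XEN, SOX2 with 2.61 RPM, 10.6 and 11.9, and 4.92 and 2.64. ESRRB stayed between 1.44 and 2.97 RPM in its pooled columns.

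A further 2 Klf4 regions rose in pooled and tested values. Upstream, at -10.5 kb (chr4:55541103-55543306), GATA6 measured 1.38 and 1.83 RPM at 8 h and 12.9 and 12.2 at day 4 (edgeR log2 3.12, adjusted p = 1.12e-11), with 14.8 and 11.5 in XEN. The region at +85.8 kb rose from 0.331 and 0.349 RPM to 3.77 and 3.99, and was back at 0.717 and 1.44 in XEN. At the promoter, -0.1 kb, GATA6 changed from 8 h values of 3.08 and 3.4 RPM to 6.15 and 5.86 at day 4 (edgeR log2 0.98, adjusted p = 0.00346), while its input went from 1.07 to 2.40 RPM, and the pooled difference taken as a ratio to input was -0.21 on the log2 scale.

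At Klf2, GATA6 fell by at least 2-fold at 7 of 9 regions from 8 h to day 4 and rose at 2, where 34.8% of all regions fell and 30.9% rose, and edgeR made the same number of calls in each direction. The strongest region, -47.7 kb (chr8:72270749-72272404, intergenic), measured 29.1 and 24.1 RPM at 8 h, 28.1 and 39.1 at 16 h and 3.38 and 3.65 at day 4 (8 h to day 4, edgeR log2 -2.88, SE 0.26, adjusted p = 5.51e-12). OCT4 at this region held at 9.81 RPM before Dox and 9.73 and 12.4 at day 1, and measured 3.46 and 2.34 at day 4. Nearer the gene, -2.8 kb (chr8:72315857-72316655), was the site with the most OCT4 of any of the 102 regions before Dox: OCT4 measured 19.3 RPM, then 24.9 and 22.5 at 8 h, 5.57 and 14.4 at 16 h and 2.99 and 1.66 at day 4. Its GATA6 was already lower at 16 h, going from 8 h values of 11.7 and 10.2 RPM to 5.62 and 3.16 at 16 h and 1.66 and 3.31 at day 4 (8 h to day 4, edgeR log2 -2.17, adjusted p = 6.47e-06).

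One region in the Klf2 window went the other way. It lies at +97.0 kb, in an intron of Eps15l1, which encodes an endocytic adaptor (chr8:72415311-72416462). GATA6 there measured 0.864 and 1.83 RPM at 8 h and 17.4 and 20.1 at day 4 (edgeR log2 4.12, SE 0.39, adjusted p = 1.64e-11), and 2.48 and 5.55 in XEN. OCT4 measured 0.785 and 0.744 RPM at 8 h and 24.3 and 22.1 at day 4 (edgeR log2 4.95, adjusted p = 1.65e-07), the largest rise of OCT4 among the regions tested, and SOX17 1.12 and 0.714 against 35.3 and 24.2 (edgeR log2 3.87, adjusted p = 3.06e-16). In XEN cells OCT4 stood at 1.87 RPM and SOX17 at 2.08 and 1.88, so that all 3 were high at day 4 and low in XEN.

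Klf5 kept most of its GATA6 and gained OCT4. Its strongest region, +33.0 kb (chr14:99330342-99332644, intergenic), measured 36.6 RPM of GATA6 at 8 h as a pooled value that could not be split into libraries, and was not tested. GATA6 was then 26.3 and 27.9 RPM at day 1, 15.4 and 27.2 at day 4 and 20.9 and 20.1 in XEN. OCT4 there rose from 8.6 RPM before Dox to 18.5 and 19.7 at day 1 and a pooled 24.7 at day 2, and SOX17 from 8 h values of 3.81 and 5.12 RPM to 17.9 and 16.4 at day 4 (edgeR log2 0.78 with TMM scaling, adjusted p = 0.0125). ESRRB measured 12.6 RPM before Dox, 21 and 23.1 at 16 h and 1.82 and 2.56 at day 4.

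Nearer to the gene, Klf5 -23.3 kb lost part of its GATA6, with 18.1 and 15.6 RPM at 8 h, 10.8 and 10.7 at day 4 and 8.15 and 9.05 in XEN, an edgeR log2 difference of -0.59 between 8 h and day 4 (adjusted p = 0.0205). At -34.0 kb GATA6 rose from 3.90 and 4.54 RPM to 11.7 and 14.3 (edgeR log2 1.71, adjusted p = 5.34e-07), and OCT4 from 2.53 RPM before Dox to 17.6 and 17.8 at day 4. The promoter region, -0.2 kb, measured 0.734 and 0.960 RPM of GATA6 at 8 h and 3.05 and 3.14 at day 4 (edgeR log2 2.03, adjusted p = 6.86e-06), while its input went from 0.272 to 1.22 RPM. Taken as a ratio to input, that GATA6 difference was -0.01 on the log2 scale. The largest rise and fall of the locus were at weaker regions: +106.6 kb rose from 0.749 and 0.698 RPM to 5.16 and 5.26, and +45.5 kb fell from 0.951 and 1.48 to 0.222 and 0.255.

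Tfcp2l1 lost GATA6 at its intronic enhancer region and at further regions of the window, while others kept or gained it. From 8 h to day 4, 6 of 12 regions fell by at least 2-fold and 4 rose, against 34.8% and 30.9% of all regions. At +20.3 kb, in an intron of Tfcp2l1 (chr1:118647898-118650515, accessible, active enhancer state), GATA6 measured 27.6 and 25.9 RPM at 8 h, 29.6 and 32.3 at 16 h, 5.27 and 7.98 at day 4 and 5.74 and 4.94 in XEN (8 h to day 4, edgeR log2 -1.98, SE 0.24, adjusted p = 3.47e-09). ESRRB was high there, with 18.9 RPM before Dox and 11.3 and 18.1 at day 1, and fell to 2.34 and 2.26 at day 4 (8 h to day 4, edgeR log2 -2.28, with 1 library at 8 h). OCT4 held for longer, with 12.4 RPM before Dox, 15.4 and 13.1 at day 2 and 3.80 and 3.77 at day 4.

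Downstream of the gene, Tfcp2l1 +62.0 kb measured 7.09 and 5.93 RPM of GATA6 at 8 h, 6.43 and 4.33 at day 4 and 9.39 and 8.16 in XEN, with no call by edgeR between 8 h and day 4 (log2 -0.20, adjusted p = 0.559). Signal of the SOX17 antibody there was 4.05 RPM before Dox, 11.1 and 12.0 at day 4 and 15.2 and 16.0 in XEN. The fall at +148.7 kb was the deepest by edgeR log2 of the regions tested at the 7 loci. GATA6 there went from 8 h values of 6.34 and 5.76 RPM to 0.111 and 0.849 at day 4 (edgeR log2 -4.03, SE 0.48, adjusted p = 2.85e-09), the lower of which rests on very few reads. In pooled RPM, the deepest log2 falls of Tfcp2l1 and Prdm14 were -3.21 and -3.22. At +129.5 kb GATA6 fell from 8.22 and 7.85 RPM to 1.22 and 1.61. Tfcp2l1 -94.4 kb, in an intron of Clasp1, a microtubule-binding protein, rose from 0.173 and 0.175 to 2.16 and 2.12, and -1.3 kb, the region nearest the start, fell from 1.93 and 2.09 to 0.499 and 1.02.

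At Prdm14 no region rose by 2-fold in pooled GATA6 from 8 h to day 4 and 7 of 9 fell, against 30.9% and 34.8% of all regions. The region with the most GATA6 at 8 h and the most OCT4 before Dox, +52.5 kb (chr1:13074151-13075321, intergenic, active enhancer state), measured 11.8 and 9.16 RPM of GATA6 at 8 h, 4.93 and 2.46 at 16 h, 1.94 and 3.31 at day 4 and 0.391 and 0.960 in XEN (8 h to day 4, edgeR log2 -2.03, adjusted p = 3.69e-06). Its OCT4 went from 11.7 RPM before Dox to 2.69 and 8.73 at 16 h and 1.58 and 2.23 at day 4. At +111.3 kb, which had more GATA6 than +52.5 kb from 16 h to day 2, GATA6 measured 9.28 and 11.2 RPM at 16 h and 5.26 and 4.18 at day 2, against 1.44 and 1.87 at day 4. At +108.7 kb, its neighbour, it was already at 3.55 and 1.64 RPM at 16 h after 7.89 and 7.07 at 8 h. The region nearest the start, -5.0 kb, fell from 3.92 and 2.53 RPM to 1.05 and 1.27. The sole region edgeR called higher, at -18.7 kb in an exon of Ncoa2, a nuclear receptor coactivator, measured 0.302 and 1.48 RPM at 8 h and 1.44 and 1.70 at day 4 (log2 1.46, adjusted p = 0.00754), with a library of 8 h between those of day 4.

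Tbx3 held the 2 regions with the most GATA6 at 8 h of the 102, on either side of another bound region upstream of the gene. At -81.6 kb (chr5:119585655-119590059) GATA6 measured 61.4 and 53.5 RPM at 8 h, 31.2 and 40.9 at day 4 and 31.7 and 29.6 in XEN, and at -90.5 kb (chr5:119579174-119581740) 54.2 and 50.6, then 22.7 and 34.4, then 37 and 30.2. Between them, -85.5 kb (chr5:119584062-119585545) measured 35.8 and 29.4 RPM at 8 h, 5.10 and 12 at day 4, and 1.43 and 2.88 in XEN. All 3 had PTFs before Dox and active enhancer state, and all 3 fell from 8 h to day 4, with log2 differences of -0.62, -0.83 and -1.93 for -81.6, -90.5 and -85.5 kb (edgeR adjusted p = 0.00498, 0.000451 and 8.11e-08). From day 4 to XEN the log2 differences were -0.30, 0.17 and -2.04 (edgeR adjusted p = 0.257, 0.55 and 1.24e-05). The difference between the neighbours was not itself tested.

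At these Tbx3 regions, SOX17 in XEN measured 15.6 and 16.1 RPM at -81.6 kb and 23.2 and 27.4 at -90.5 kb, against 1.24 and 1.11 at -85.5 kb. OCT4 measured 16.7 RPM before Dox and 31.2 and 32 at day 2 at -81.6 kb, 12.7 and then 22.7 and 29.6 at -90.5 kb, and 14.2 and then 22.8 and 25 at -85.5 kb. Of these, -90.5 kb passed the 2-fold limit, and the column before Dox has no libraries to test. ESRRB was at 22.9, 11.3 and 20.9 RPM before Dox in that order and fell at all 3, at -85.5 kb to 1.09 and 1.91 at day 4 (8 h to day 4, edgeR log2 -3.27, with 1 library at 8 h).

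Within Tbx3, the intronic region at +9.4 kb lost GATA6 early, from 8 h values of 15.2 and 11.3 RPM to 7.22 and 3.28 at 16 h and 1.05 and 2.29 at day 4 (8 h to day 4, edgeR log2 -3.07, adjusted p = 5.06e-09). OCT4 fell there from 13.3 RPM before Dox to 2.65 and 1.54 at day 4. Downstream, +36.2 kb rose from 0.879 and 0.873 RPM to 3.33 and 4.41 (edgeR log2 2.19, adjusted p = 1.19e-06), and the region nearest the start, -0.9 kb, did not pass the test (3.95 and 3.67 RPM at 8 h, 2 and 3.23 at day 4, edgeR adjusted p = 0.128). From day 4 to XEN, edgeR called 12 of the 23 Tbx3 regions lower and none higher, against 14.3% and 16.1% of all regions.

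Nr5a2 had the least GATA6 of the 7 loci, with 23.3 RPM summed at 8 h (22.4 without the region at +19.8 kb). Its strongest region at 8 h, -30.0 kb upstream (chr1:136989509-136991015, intergenic), measured 9.98 and 10.1 RPM, then 9.43 and 9.16 at day 1, 2.49 and 3.65 at day 4 and 1.24 and 1.78 in XEN (8 h to day 4, edgeR log2 -1.69, adjusted p = 1.79e-06). OCT4 at this region measured 3.14 RPM before Dox and 5.59 and 7.2 at day 1, and was at 1.62 and 1.49 at day 4. GATA6 at the promoter region, -0.2 kb, did not pass the test, with 3.73 and 3.93 RPM at 8 h, 3.99 and 5.52 at day 4 and 5.54 and 5.55 in XEN (8 h to day 4, edgeR log2 0.36, adjusted p = 0.273). At +7.6 kb, in an intron, GATA6 fell from 2.82 and 3.49 to 0.721 and 0.764, and ESRRB from 5.5 RPM before Dox to 0.572 and 0.834 at day 4. The one Nr5a2 region with a called rise from 8 h to day 4 was the one set apart, +19.8 kb.

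**Figure D4:**
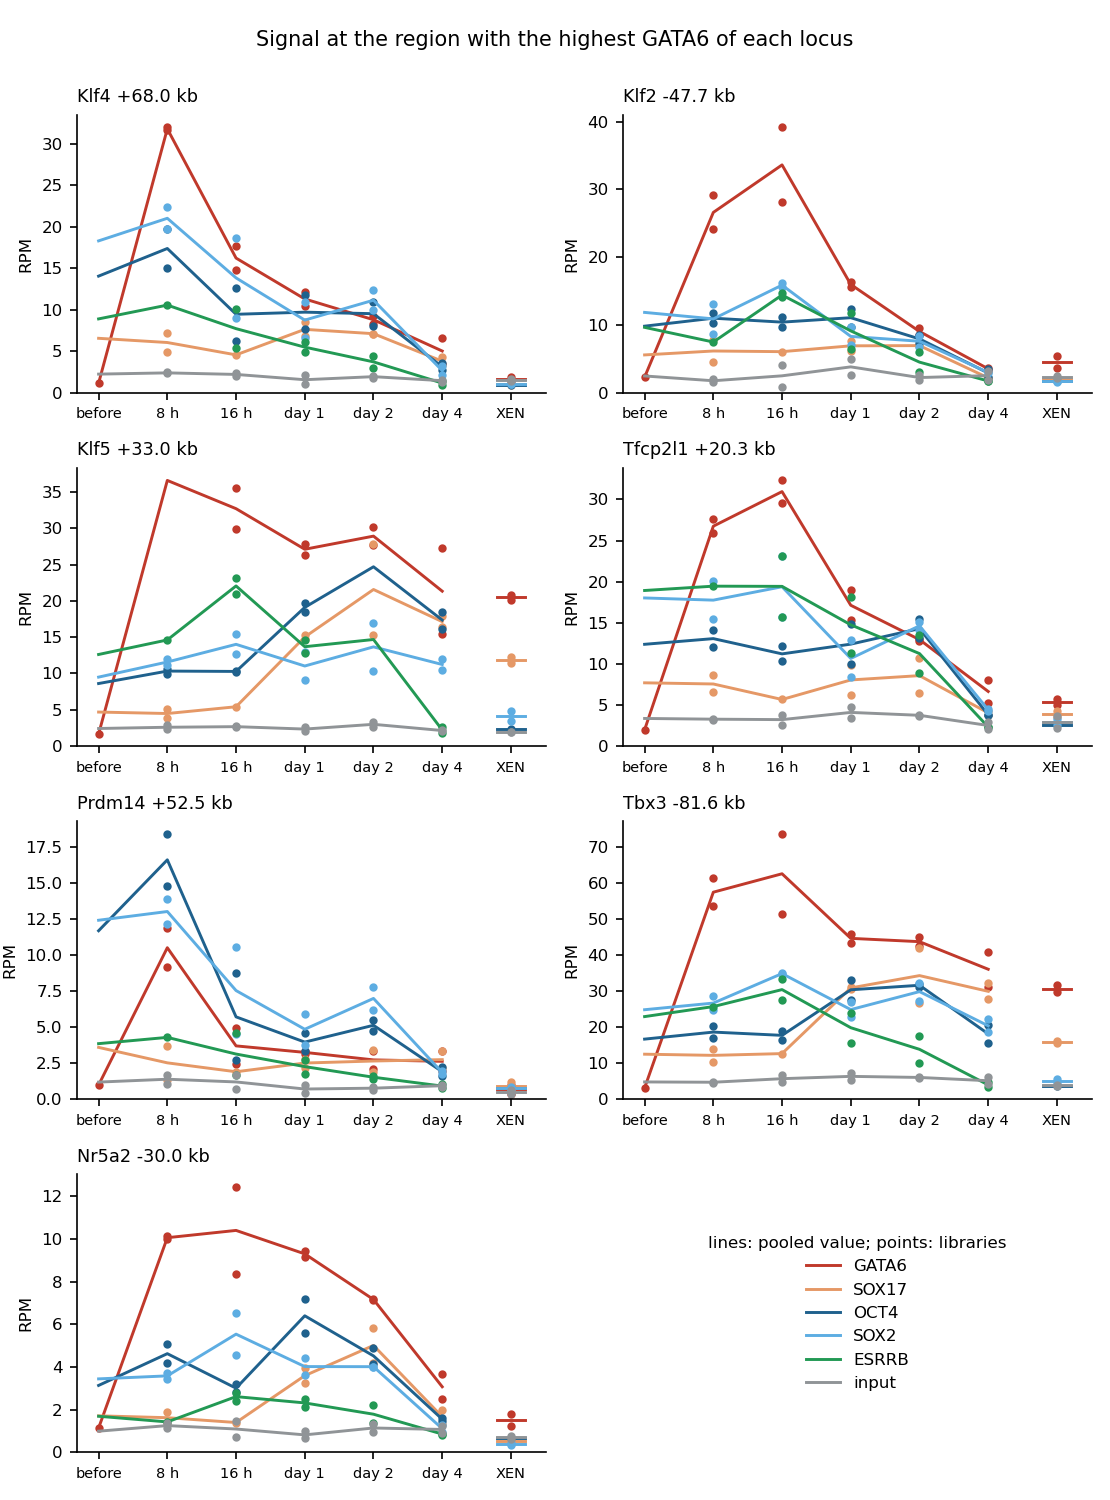
Signal (RPM, linear axis from 0) at the region with the most GATA6 at 8 h in each locus against condition, 1 panel per region and 1 colour per factor, with lines for pooled values, points for libraries and XEN cells set apart as dashes. At Klf5 +33.0 kb and Tbx3 -81.6 kb GATA6 in XEN stays above 20 RPM, while at Klf4 +68.0 kb it ends at 1.67 RPM.

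ESRRB, an orphan nuclear receptor of the naive network, fell at many of the regions. From before Dox to day 4, 42 of the 102 regions fell by at least 2-fold and none rose, against 25.2% and 0.248% of all regions, with a pseudocount of 0.164 RPM. The fallen regions were 14 of 23 at Tbx3, 6 of 9 at Prdm14, 6 of 12 at Tfcp2l1, 6 of 19 at Klf4, 4 of 9 at Klf2, 4 of 21 at Klf5 and 2 of 9 at Nr5a2. Summed ESRRB at day 4 was 0.165 of that before Dox at Tfcp2l1, 0.188 at Tbx3 and 0.228 at Klf4, and 0.417 at Klf5 and 0.451 at Nr5a2 (0.337 without +19.8 kb), against 0.430 over all regions. Between 8 h and day 4, 52 fell and 1 rose in pooled RPM (30.3% and 2.51% of all regions), and edgeR, with 1 recovered library at 8 h, called 25 lower and 3 higher (10.3% and 2.8%), which assumes that the lone library varies like the other groups. With library size alone, edgeR called 34 lower and 0 higher, against 18.5% and 0.46% of all regions.

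OCT4, whose gene is Pou5f1, moved in both directions. From before Dox to day 2, 21 regions rose and 4 fell, against 14.6% and 4.86% of all regions, with a pseudocount of 0.167 RPM, and the risen ones included 7 at Klf5, 5 at Klf4 and 5 at Tbx3. Prdm14 had 3 of the 4 falls. Summed OCT4 at day 2 was 1.99 times that before Dox at Klf5, 1.57 at Tbx3 and 0.681 at Prdm14, against 1.22 over all regions. By day 4, 26 regions were lower than before Dox and 16 higher, against 19.4% and 21% of all regions. The locus ratios were then 1.66 at Klf5, 0.819 at Tbx3, 0.432 at Tfcp2l1 and 0.342 at Prdm14, and 1.31 at Nr5a2, or 0.562 without +19.8 kb. Over all regions the ratio was 0.982. Counted from 8 h, where libraries were recovered, 19 rose and 7 fell by day 2 in pooled RPM (16.8% and 10.2% of all regions), and edgeR called 13 of 98 higher and 10 lower (13.3% and 14.3%), or 12 in all without either library of 8 h and 11 without the shallower library of day 2. By day 4, 17 had risen and 32 fallen (22.8% and 23.7%), and edgeR called 18 higher and 39 lower (24.5% and 26.3%).

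SOX2, the usual partner of OCT4 on composite motifs, fell at more of the regions. From before Dox to day 4, 34 fell and 16 rose, against 24.1% and 24% of all regions, with a pseudocount of 0.195 RPM. At Prdm14 6 of 9 fell and none rose, and at Klf5 6 of 21 rose and 1 fell. The summed ratio was 0.266 at Prdm14, 0.361 at Tfcp2l1 and 0.390 at Klf2, and 1.13 at Klf5, against 0.871 over all regions. Nr5a2 showed 1.70 with and 0.412 without +19.8 kb. Between 8 h and day 4, 40 fell and 20 rose (27.6% and 24.2%), and edgeR called 43 lower and 22 higher (28.8% and 28.7%).

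SOX17, the PrE factor, rose at many of the regions in RPM, as it did over all regions of the table. Whether more of the regions rose or fell depended on the scaling. The study reports Sox17 as a gene that GATA6 activates after Dox. Yet the SOX17 antibody gave up to 6.55 RPM before Dox at Klf4 regions, where input reached at most 2.77 RPM. What this early signal stands for was not tested, so falls from it are not read as loss of SOX17. From before Dox to day 4, 38 regions rose and 14 fell by at least 2-fold, against 44.5% and 8.72% of all regions, with a pseudocount of 0.192 RPM. The median log2 difference was 0.55, while that over all regions was 0.79, and relative to this latter median 19 rose and 35 fell (25.6% and 24.5% of all regions). Between 8 h and day 4, 42 rose and 14 fell (44.5% and 7.32%), while edgeR called 20 higher and 37 lower, against 25.8% and 21.9%, and 45 higher and 15 lower with library size alone, against 47.9% and 7.11%. From before Dox to day 4, 11 of 21 regions rose at Klf5, 9 of 23 at Tbx3 and 8 of 19 at Klf4. The summed SOX17 of day 4 was 3.17 times that before Dox at Klf5 and 2.43 times at Klf4, against 2.95 over all regions.

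The siRNA comparison asked whether OCT4 affects GATA6 and SOX17 at day 2. The table holds no expression values and no OCT4 profile of these cells, so the knock-down itself was not checked here. The study states that it was checked by qPCR and reports reduced Oct4 mRNA at day 2. At these loci GATA6 changed by at least 0.5 on the log2 scale at 29 of 102 regions with Oct4 siRNA, 10 higher and 19 lower, against 21.9% and 21.2% of all regions. By edgeR, 9 were higher and 10 lower, against 13.8% and 11.7%, and with library size alone 3 and 4, against 6.07% and 4.34%. SOX17 was higher in pooled RPM at 45 and lower at 5, where 51.4% of all regions were higher and 3.95% lower. Relative to the median of all regions, 14 were higher and 21 lower (19.9% and 19%). By edgeR 3 were higher and 9 lower (7.5% and 6.47%), and with library size alone 1 and 0 (2.48% and 0.0118%). The TMM factors of the SOX17 libraries with Oct4 siRNA were 0.916 and 1.67, against 0.795 and 0.821 with control siRNA. Without the deeper library of control siRNA, 8 regions were called for GATA6, and without the shallower 11. For SOX17, 3 and 2 were called without the deeper and the shallower library of Oct4 siRNA.

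**Figure D5:**
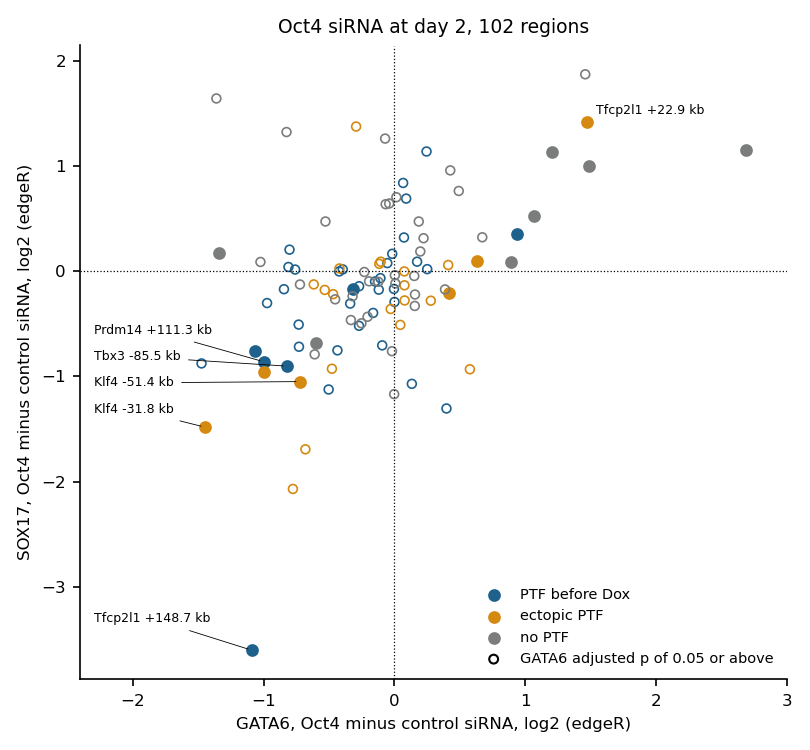
Log2 difference with Oct4 siRNA against control siRNA by edgeR with TMM scaling, GATA6 on the horizontal and SOX17 on the vertical axis, 1 point for each of the 102 regions, coloured by PTF class, filled where GATA6 was called and named where SOX17 was called too. Klf4 -31.8 kb, Tbx3 -85.5 kb and Prdm14 +111.3 kb lie low on both axes, and Tfcp2l1 +22.9 kb lies high on both.

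Regions with PTFs before Dox gave 5 of the 10 lower calls for GATA6 by edgeR, where over all regions they gave 2064 of 4944. Within this class 5 of 38 were lower, against 23.3% of all its regions. Tbx3 -85.5 kb, the upstream region that lost GATA6 by XEN, measured 23.1 and 31 RPM of GATA6 with control siRNA and 13.4 and 17 with Oct4 siRNA (edgeR log2 -0.82, SE 0.12, adjusted p = 8.05e-09), and its SOX17 11.1 and 11.9 against 7.74 and 11.3, which overlap (edgeR log2 -0.90, adjusted p = 1.41e-05). Its neighbours did not pass the test. GATA6 at -81.6 kb measured 46 and 56.1 RPM against 43.9 and 57.5 (edgeR log2 -0.003, adjusted p = 0.989), and at -90.5 kb 42.9 and 54 against 39.8 and 53.2. Klf2 -47.7 kb measured 9.7 and 13.7 RPM against 4.64 and 6.67 (edgeR log2 -1.07, adjusted p = 1.12e-07), and Prdm14 +111.3 kb 11.5 and 12.1 against 5.44 and 6.37 (edgeR log2 -0.996, adjusted p = 4.42e-07). In each of these, both libraries with Oct4 siRNA lay under both with control siRNA for GATA6.

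Among regions called for GATA6, the largest fall of GATA6 was at Klf4 -31.8 kb (chr4:55563904-55564510), an ectopic PTF region picked after its values were seen. GATA6 measured 8.71 and 10.4 RPM with control siRNA and 2.72 and 4.78 with Oct4 siRNA (edgeR log2 -1.45, SE 0.20, adjusted p = 3.52e-10), and SOX17 6.15 and 7.53 against 2.96 and 4.73 (edgeR log2 -1.48, adjusted p = 8.27e-08). In the time course the region bore OCT4 for a short time, with 1.78 RPM before Dox, 5.82 and 8.11 at day 1, 5.88 and 8.81 at day 2 and 1.37 and 2.4 at day 4, and its GATA6 and SOX17 were likewise highest at day 1 and day 2.

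The 9 regions with more GATA6 under Oct4 siRNA included Klf4 +16.4 kb, with 11.6 and 15.9 RPM against 19.4 and 22 (edgeR log2 0.63, adjusted p = 3.05e-05), and Tfcp2l1 +62.0 kb, with 2.79 and 4.8 against 5.3 and 9.55 (edgeR log2 0.94, adjusted p = 0.000195). Weak regions of the late class were among them: Tfcp2l1 -94.4 kb (0.643 and 1.25 RPM against 2.03 and 3.18) and, picked after their values were seen, Tfcp2l1 +22.9 kb (1.03 and 0.778 against 2 and 3.28) and Nr5a2 +44.9 kb (0.161 and 0.346 against 1.02 and 1.99). These 3 and Klf4 -31.8 kb, Klf4 -6.5 kb, Klf2 -47.7 kb and Prdm14 +111.3 kb were the 7 regions still called with library size alone. Of the regions called for both factors by edgeR, 5 were lower for both, 1 was higher for both and 0 went in opposite directions, where 3.94%, 5.95% and 0.00236% of all regions did so. With library size alone, SOX17 was called lower at none of these 5, with edgeR adjusted p from 0.23 to 0.84. One of them, Tfcp2l1 +148.7 kb, had 0.306 RPM of SOX17 with control and 0.0726 with Oct4 siRNA, which rests on very few reads.

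By PTF class, GATA6 was called lower by edgeR at 5 of 38 regions with PTFs before Dox and higher at 1, against 23.3% and 4.6% of all regions of the class. With ectopic PTFs 3 of 24 were lower and 3 higher, against 20.6% and 14.9%, and with none 2 of 40 were lower and 5 higher, against 5.4% and 16.6%. For SOX17 the lower calls were 3, 6 and 0 and the higher ones 0, 2 and 1 in that order, against 13.8%, 14.8% and 1.81% lower and 3.05%, 7.94% and 8.87% higher. Control siRNA cells and the day 2 time point differed in level. By the study's methods they also differed in handling: siRNA cells were nucleofected, and their libraries were sequenced as paired reads rather than single reads. What the difference in level stems from cannot be told apart. Pooled GATA6 summed to 557 RPM over the 102 regions with control siRNA and to 401 at day 2 of the time course, and was higher with control siRNA at each of the 7 loci, as it was over all regions (143828 against 87211 RPM).

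Likeness between loci was described by the Pearson correlation of log2 summed RPM across the 45 columns, over 15830 protein-coding genes with at least 3 regions. The columns of one library share its depth across all genes. The medians of r over all genes were 0.805 for Klf4, 0.675 for Klf2, 0.824 for Klf5, 0.668 for Tfcp2l1, 0.636 for Prdm14, 0.767 for Tbx3 and 0.586 for Nr5a2. The most like loci were Zfp462 (r = 0.988) and Cyp2b10 (0.985) for Klf4, Sat2 (0.967) and Hmgxb4 (0.961) for Klf2, and Smarca1 (0.987) and Clmp (0.985) for Klf5. For Tfcp2l1 they were Tpd52 (0.966) and Gm44503 (0.963), for Prdm14 Rims2 (0.985) and Rnf125 (0.977), and for Tbx3 Cdsn (0.986) and Sulf2 (0.984). Nr5a2 had Foxs1 (0.796) and Phf3 (0.788), and its correlation with the other 6 loci, 0.614 to 0.746, became 0.802 to 0.926 without the region at +19.8 kb.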

How the data were processed

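Per the labels and the study's methods, ChIP-seq libraries with molecular identifiers were demultiplexed with bcl2fastq, trimmed with cutadapt, aligned to mm10 with Bowtie2, filtered on mapping quality, and cleared of duplicates with SAMtools, and GATA6 peaks were called with MACS2. The authors counted reads on each GATA6 region and deposited RPM values, scaled to library size and pooled over the libraries of a condition. They also deposited motif scores and classes of the regions. A column with the outcome of the authors' own DESeq2 comparison was not used, nor were 14 columns of per-sample values of no mapped sample. Groups were taken from the titles of the labels.

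Each pooled value was found to be the mean over libraries of the reads plus 1, scaled to library size, which gave whole reads in 100% of values of 40 of 45 columns, with a single solution for at least 97.7% of values per column. Regions without one were left out of that fit. The main measure was the log2 difference of pooled RPM after a pseudocount set at percentile 5 of each assay, called at a log2 difference of 1 over time and 0.5 for siRNA. Recovered reads were tested with edgeR 4.0.16 in R 4.3.3 (quasi-likelihood, TMM, Benjamini-Hochberg at 0.05), all times of an assay in 1 fit and the siRNA libraries of each factor in another. DESeq2 1.42.0, library size alone, other pseudocounts and filters, a ratio to input and leaving out each library were alternatives. The script was tested on simulated data: of 200 regions changed 3-fold among 20000, edgeR recovered 9.5% for GATA6 from before Dox to 8 h, 37.5% for SOX17, 41.5% for OCT4, 41.0% for SOX2, 6.0% for ESRRB, and 67.0% and 55.0% for GATA6 and SOX17 with siRNA.

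Regions described in full were, in each locus, the 3 with the highest GATA6, the one nearest the start, the one with the most OCT4 before Dox, and those with the largest rise and fall of GATA6 from 8 h to day 4. The loci, lists and tests were chosen with earlier results of these data known. Levels of the locus sums compare the same regions between conditions. The table holds no RNA values, and the RNA-seq that the study also made was not used here.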

Additional observations from a re-analysis of the deposited data

Results flagged for a closer look

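One value stood out in data that no comparison of the report uses. ESRRB at day 2 measured 31.2 RPM at Nr5a2 +19.8 kb, where the next highest ESRRB column was 2 RPM and the highest input column 4.24 RPM. The pooled value rests on a single library at 60.3 RPM, while the other measured 2.05 RPM. The cause was not tested.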

How the results depend on the processing

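No paired analysis was possible because the recovered libraries carry no replicate numbers. With a pseudocount 10 times larger, the counts of changed regions fell throughout: from before Dox to 8 h to 45 for GATA6, from before Dox to day 4 to 20 for SOX17, 20 for OCT4, 24 for SOX2 and 24 for ESRRB, from before Dox to day 2 to 7 for OCT4, from 8 h to day 4 to 29 for GATA6, 19 for SOX17, 25 for OCT4, 26 for SOX2 and 27 for ESRRB, from 8 h to day 2 to 10 for OCT4, from day 4 to XEN to 2, and with siRNA to 14 for GATA6 and 17 for SOX17. Keeping the stronger regions left 21 changed from day 4 to XEN and 19 with siRNA for GATA6. In place of pooled counts of 78, 53, 29 and 50, edgeR called 16 for GATA6 from before Dox to 8 h, 28 for ESRRB from 8 h to day 4, and 19 and 12 for GATA6 and SOX17 with siRNA. With library size alone these edgeR counts were 71 for GATA6 to 8 h, 7 for GATA6 and 1 for SOX17 with siRNA. DESeq2 called 8 for GATA6 to 8 h, 18 from day 4 to XEN, 15 for OCT4 from 8 h to day 2 and 12 for GATA6 with siRNA.

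Leaving out 1 library at a time, edgeR called 8 to 16 for GATA6 from before Dox to 8 h, 65 to 78 to day 4 and 10 to 26 to XEN, from 8 h to day 4 38 to 49 for SOX17, 44 to 49 for OCT4, 50 to 55 for SOX2 and 20 to 23 for ESRRB, from 8 h to day 2 11 to 18 for OCT4, and with siRNA 8 to 23 for GATA6 and 2 to 10 for SOX17.

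Among single regions, 13 values reversed. Relative to the median of all regions, GATA6 from before Dox to 8 h was -0.18 at Klf4 -0.1 kb, -0.11 at Klf5 -34.0 kb and -0.32 at Prdm14 -18.7 kb, and SOX17 with siRNA -0.0153 at Klf4 -10.5 kb and -0.000728 at Nr5a2 -0.2 kb. As a ratio to input, Klf5 -0.2 kb showed -0.012 for GATA6, -0.47 for SOX17 and -0.67 for SOX2 from 8 h to day 4 and -0.20 for OCT4 from 8 h to day 2. With library size alone, SOX17 from 8 h to day 4 was 0.21 at Prdm14 +52.5 kb, 0.0896 at Tbx3 -85.5 kb and 0.11 at Nr5a2 -30.0 kb, and with siRNA 0.15 at Klf5 -34.0 kb. Of the other region values, 3153 held, 685 moved, 38 passed and 171 lost the threshold. Library size alone, comparisons from 8 h other than for GATA6, and leaving out Nr5a2 +19.8 kb, which moved no count of calls by over 1.5 times, were chosen after seeing the data.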
